A study of Mus musculus with 15 samples.

Results

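Osteocrin (Ostn), Gap43, Rtl3, Mdga1, Cd24a, Wfdc3 and Casp4 are 7 genes outside the adipocyte program that were picked as raised when JMJD1A is lost in 3T3-L1 cells, a mouse preadipocyte line, out of 26301 gene numbers counted in 15 RNA-seq libraries. They were chosen by measured values, each contrast being ranked over the genes that were called in it, had a mean of at least 5 CPM (counts scaled by library size) and did not overlap between the groups. Within that limit, Ostn, Gap43 and Rtl3 had the highest log2 fold changes on knockdown, Mdga1 and Cd24a were among the 3 genes that fell most with wild-type JMJD1A, and Mdga1, Wfdc3 and Casp4 had the highest log2 fold changes in the mutant against the wild type. Outside it, some genes of lower level had larger changes, for example Klhl4 on knockdown (log2 3.71, from a mean of 0.300 to 3.82 CPM, against 3.67 for Rtl3), Camk2n1 with the wild type (log2 -1.02, against -0.84 for Cd24a) and Rtn4r in the mutant against the wild type (log2 2.26, against 1.87 for Mdga1). On knockdown, Gpr141 (log2 7.74, mean 2.08 CPM in sh-Jmjd1a) and Gm4070 (5.16, mean 1.26 CPM in sh-Jmjd1a) were above even Ostn (4.60). All 7 members passed the filter on low counts in both sets of libraries.

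Cells were collected on day 2 after induction with 1.67 µM insulin, 1 µM dexamethasone and 115 µg/mL IBMX, in 5 groups of 3 replicates. Control (sh-Empty) cells carried the empty short-hairpin vector, and JMJD1A-KD (sh-Jmjd1a) cells carried a hairpin against Jmjd1a. The other 3 groups were JMJD1A-KD cells that also expressed LacZ as a control, JMJD1A(WT) or JMJD1A(H1122A), in which a residue that coordinates iron was replaced, from pMXs-based retroviral vectors. The 4 groups other than sh-Empty thus share the hairpin, and both JMJD1A constructs carry silent changes that the hairpin does not match. The lines were drug-selected stable populations, and no source used here says whether replicates came from separate infections or cultures, so the p-values measure the spread between these libraries, which may be technical.

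JMJD1A, encoded by Kdm3a, is a histone demethylase that uses iron and 2-oxoglutarate as cofactors and removes methyl groups from lysine 9 of histone H3, a mark of repressed chromatin. Removal of that mark is generally associated with gene activation. The 7 genes were taken from the opposite direction, and the comparison asks which of their rises were reversed when the wild-type protein was put back. They belong to several families whose textbook roles lie in muscle, bone, nerve, immune and secretory cells.

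Kdm3a was read first, as a check of the labels. Its counts in sh-Empty libraries were 1942, 2014 and 2855, and those in sh-Jmjd1a libraries were 1479, 1584 and 1780. Scaled to the library total with TMM factors, this was 174 CPM ± 7.21 (SD, n = 3) against 130.2 CPM ± 4.46 (SD, n = 3), with no overlap, a log2 fold change of -0.42 ± 0.05 (SE) and an adjusted p of 2.9e-08. In the rescue set, the mean of Kdm3a was 120 CPM (SD 2.66, n = 3) for LacZ, 1698 CPM (SD 70.8) for JMJD1A(WT) and 2209 CPM (SD 88.7) for JMJD1A(H1122A). The counts of the last pair of groups do not separate vector transcripts from those of the cell's own gene. The counts followed the labels, except that they cannot check which of the 2 JMJD1A constructs a library carried, since both were high. The knockdown left most of the Kdm3a transcript in place.

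Total counts ran from 11437058 to 25523148 with a median of 12916162, the highest in JMJD1A(WT) replicate 3. Summed levels of the 10 preadipocyte and fibroblast markers were 18998 to 19372 CPM in sh-Empty and 29665 to 30891 CPM in sh-Jmjd1a libraries. In the rescue set they were 35245 to 36751 CPM with LacZ, 35848 to 37843 CPM with JMJD1A(WT) and 35822 to 37177 CPM with JMJD1A(H1122A). Of 9 tested on knockdown, 6 were called higher and 2 lower, beside 22.3% and 23.9% of all genes tested. The 10 adipocyte markers summed to 5158 to 5234 CPM in sh-Empty and 2591 to 2770 CPM in sh-Jmjd1a libraries. With JMJD1A(WT) the adipocyte sum was 3832 to 4188 CPM, against 3358 to 3445 CPM with LacZ and 2592 to 2694 CPM with JMJD1A(H1122A). The 7 genes were therefore read in cells whose adipocyte markers fell (9 of 9 tested) on knockdown and rose (9 of 9) with the wild type. Over all genes tested, 23.9% were called lower on knockdown and 4.98% higher with the wild type. The part of the adipocyte difference in the results below was not tested. In bulk RNA, fewer cells of a type and less RNA per cell cannot be told apart.

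The direction in the knockdown was not the same for all 7 genes. For Ostn, Gap43 and Rtl3 the knockdown chose the gene, so its values are given without a test, and the rescue libraries took no part in that ranking. For Mdga1, Cd24a, Wfdc3 and Casp4 the knockdown libraries took no part in the ranking that chose them. Of these 4, 3 rose in sh-Jmjd1a cells while 1, Cd24a, fell (adjusted p under 0.05 over the 12272 genes tested by edgeR's quasi-likelihood test). Beside them, 22.3% of all genes tested were called higher and 23.9% lower. The members were named as raised genes with earlier results of these data known. Whether values outside the ranking contrast played a part in naming them is therefore not known. With JMJD1A(WT) against LacZ, 4 of the 7 were called lower and 1 higher, beside 4.52% lower and 4.98% higher among the 12557 genes tested. In JMJD1A(H1122A) against JMJD1A(WT), 5 were called higher and 1 lower, beside 12.1% higher and 11.7% lower. JMJD1A(H1122A) against LacZ gave 3 higher and 0 lower, beside 4.78% and 4.46%. Much of these rescue counts was set by the choice of Mdga1, Cd24a, Wfdc3 and Casp4, and nothing is read from them.

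**Figure D1:**
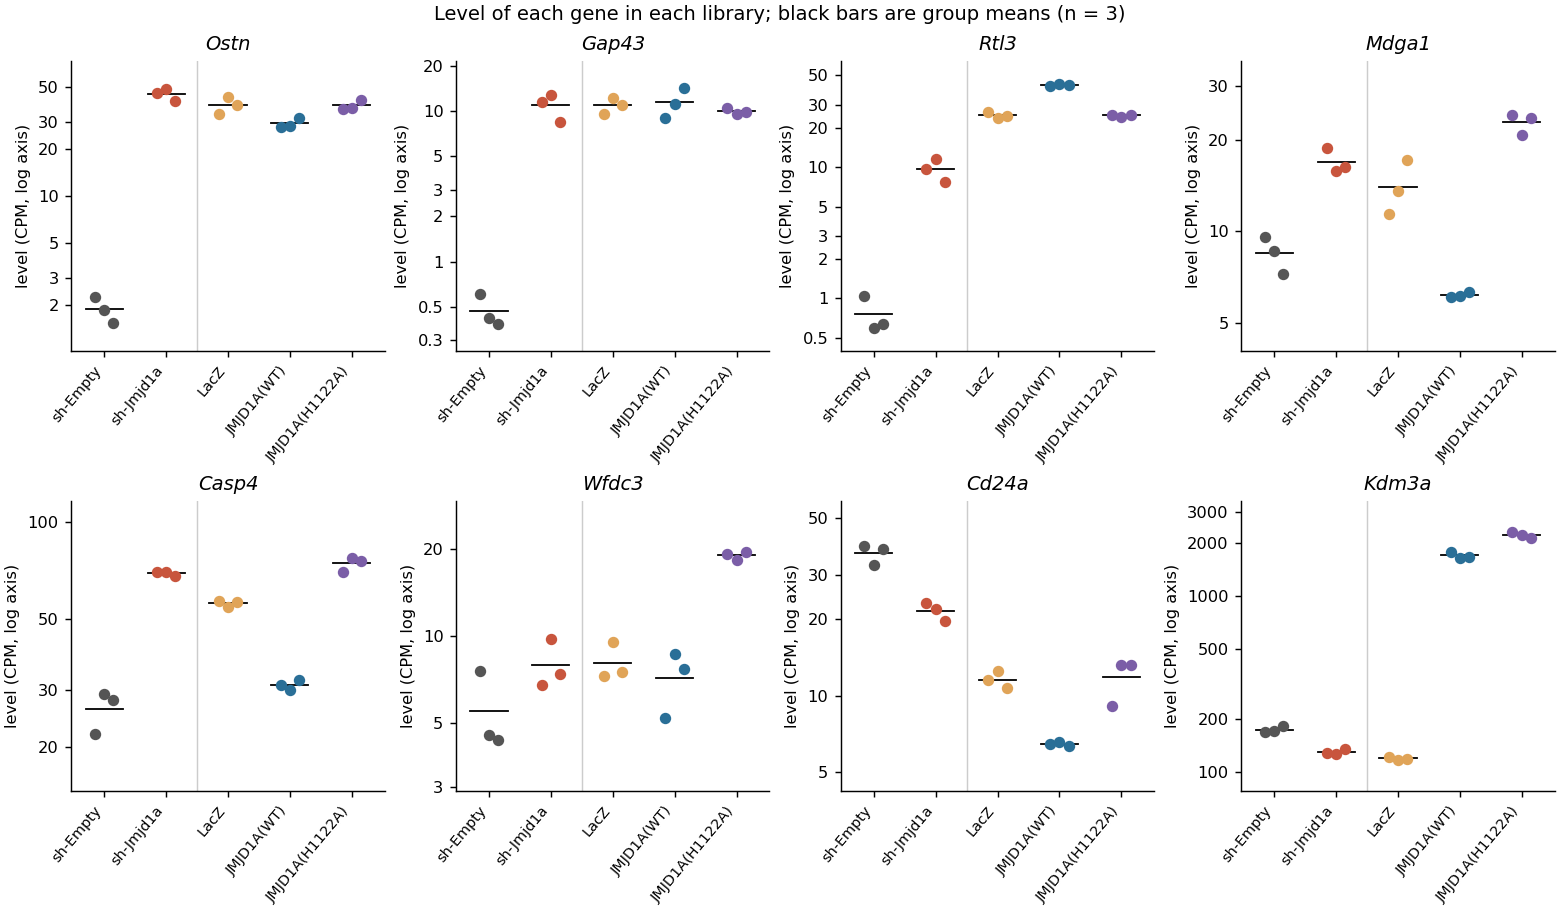
Level of the 7 genes and of Kdm3a in each of the 15 libraries (CPM with TMM factors, log axis), with 3 points and a black bar for the mean in each group and a grey line between the knockdown and the rescue set. Ostn, Gap43 and Rtl3 stay far above the sh-Empty libraries in all 4 groups with the hairpin, Mdga1 and Casp4 drop back with JMJD1A(WT), Wfdc3 is high in the JMJD1A(H1122A) libraries, and Cd24a is highest in sh-Empty.

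Promoters are shown for the 4 genes that the RefSeq table used here holds (GRCm38.p6). Each is the 250 bases before the annotated start, 5′ to 3′ on the gene's strand. Mdga1 and Casp4 had calls of the same direction in all 4 comparisons below. Wfdc3 shared these calls except with the wild type against LacZ, where it was not called (log2 -0.15). Rtl3 was also called higher on knockdown, but went the other way with the wild type. The mutant against the wild type chose Mdga1, Casp4 and Wfdc3, so their likeness there was set by the choice. Capitals mark the motif matches described after the sequences.
Mdga1, chr17:29887883-29888132, minus strand: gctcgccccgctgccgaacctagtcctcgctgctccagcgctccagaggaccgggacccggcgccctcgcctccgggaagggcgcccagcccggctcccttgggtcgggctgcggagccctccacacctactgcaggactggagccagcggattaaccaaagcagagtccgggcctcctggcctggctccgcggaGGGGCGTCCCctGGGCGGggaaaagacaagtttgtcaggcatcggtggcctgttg
Casp4, chr9:5308599-5308848, plus strand: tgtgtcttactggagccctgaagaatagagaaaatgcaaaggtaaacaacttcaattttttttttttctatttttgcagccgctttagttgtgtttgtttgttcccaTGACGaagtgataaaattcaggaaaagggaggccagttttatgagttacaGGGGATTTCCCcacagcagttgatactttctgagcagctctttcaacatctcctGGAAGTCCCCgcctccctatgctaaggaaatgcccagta
Wfdc3, chr2:164743268-164743517, minus strand: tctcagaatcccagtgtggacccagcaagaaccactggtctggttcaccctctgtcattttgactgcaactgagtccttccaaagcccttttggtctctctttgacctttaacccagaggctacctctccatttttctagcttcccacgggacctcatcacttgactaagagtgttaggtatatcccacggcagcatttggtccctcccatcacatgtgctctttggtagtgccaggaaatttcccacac
Rtl3, chrX:106840540-106840789, minus strand: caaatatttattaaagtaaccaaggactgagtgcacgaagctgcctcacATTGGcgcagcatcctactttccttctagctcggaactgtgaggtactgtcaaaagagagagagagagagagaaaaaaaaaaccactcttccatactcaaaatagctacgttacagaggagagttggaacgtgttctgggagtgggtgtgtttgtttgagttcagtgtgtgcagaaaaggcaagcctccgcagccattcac
The 4 pieces differ in base composition. That of Mdga1 was 70.4% G and C with 21 CpG sites (observed over expected 0.679), and 71.7% of the 32851 promoters in the table had a lower CpG ratio. Casp4 had 41.6% G and C with 3 CpG sites (0.277), Wfdc3 49.6% with 2 (0.139) and Rtl3 45.2% with 6 (0.476), and the medians of the table were 52.4% and 0.374.

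Motifs were searched on both strands with these sequences in view. The NF-kB motif, present in 7.25% of the promoters, matched Casp4 in overlapping windows 93 to 83 bases and again 39 to 30 bases before the start, and matched Mdga1 55 to 46 bases before it. Mdga1 also held a GC box (GGGCGG, 32.7% of promoters) 43 to 38 bases before the start, Casp4 the core of the cyclic AMP element (TGACG, 17.8%) 143 to 139 bases before it, and Rtl3 a reverse CCAAT box (CCAAT, 33.8%) 201 to 197 bases before it. The TATA box (TATAAA, 12.4%), AP-1 (TGANTCA, 6.75%) and C/EBP (TTGCNNAA, 9.56%) letters were in none of the 4 windows, and no searched motif was in that of Wfdc3. A match describes these letters and is not a site.

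Ostn (Entrez Gene 239790, chr16:27307575-27351298 on mm9, plus strand) encodes osteocrin, a secreted peptide of bone and muscle that binds the natriuretic peptide clearance receptor. Ostn had 2.26, 1.87 and 1.53 CPM in the sh-Empty libraries (26, 22 and 24 counts) and 46.1, 48.8 and 40.8 CPM in the sh-Jmjd1a libraries (532, 608 and 537 counts). The rescue libraries held 33.5, 43.4 and 38.6 CPM with LacZ, 27.8, 28.2 and 31.9 CPM with JMJD1A(WT), and 36.1, 36.6 and 41.5 CPM with JMJD1A(H1122A). The sh-Empty libraries were the only low ones, and the JMJD1A(WT) libraries lay just below the other hairpin groups without overlap. The log2 difference on knockdown was 4.60 ± 0.14 (SE), 24.2-fold, the highest of 2318 genes that were called higher with at least 5 CPM and no overlap.

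Ostn was slightly lower with wild-type JMJD1A than with LacZ. Its log2 fold change against LacZ was -0.37 ± 0.08 (SE, adjusted p = 0.0023), a level 1.29-fold lower, and JMJD1A(H1122A) stood 0.35 ± 0.09 (SE, adjusted p = 0.0020) above JMJD1A(WT) on the log2 scale. The mutant did not differ detectably from LacZ (log2 -0.01, 95% interval -0.19 to 0.16, adjusted p = 0.957). The fall with the wild type was 7.94% of the knockdown rise on the log2 scale, and Ostn in JMJD1A(WT) cells remained 15.5 times its sh-Empty level. Without LacZ replicate 2, the highest LacZ library, the fall was -0.27 with an adjusted p of 0.0578, above the threshold of 0.05.

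Among the other 11 natriuretic peptide genes with counts, 6 were tested on knockdown, of which 3 were called higher and 2 lower. All genes tested gave 22.3% higher and 23.9% lower. The median log2 fold change of the 6 was 0.28 beside -0.003 for all genes tested. Npr3, the clearance receptor that osteocrin binds, rose by a log2 value of 1.18 ± 0.15 (SE, adjusted p = 1.3e-07), from a mean of 5.51 to 12.4 CPM. Prkg2, a cyclic GMP-dependent kinase, rose by 1.30 ± 0.06 (SE, adjusted p = 8.3e-17), and Npr2, the receptor of C-type natriuretic peptide, by 0.42 ± 0.08 (SE). Npr1, the receptor of the atrial and brain peptides, went the other way, at -1.09 ± 0.16 (SE, adjusted p = 1.7e-06), and Furin, a protease that cuts prohormones, at -0.12 ± 0.05 (SE). The ligand genes Nppa, Nppb and Nppc never passed 4 counts in a library. In JMJD1A(WT) against LacZ, Prkg2 was the only one of 6 called, higher by 0.33 ± 0.05 (SE), so the Npr3 rise was not called as reversed (log2 -0.05, adjusted p = 0.883).

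Gap43 (Entrez Gene 14432, chr16:42248555-42340764 on mm9, minus strand) encodes a membrane-attached protein of neuronal growth cones, known as a marker of axon growth. It was close to silent in sh-Empty libraries, at 0.608, 0.426 and 0.383 CPM (7, 5 and 6 counts), and stood at 11.5, 12.8 and 8.44 CPM in sh-Jmjd1a libraries. LacZ libraries gave 9.61, 12.1 and 10.9 CPM, JMJD1A(WT) libraries 9.02, 11.2 and 14.3 CPM, and JMJD1A(H1122A) libraries 10.4, 9.58 and 9.82 CPM. All 12 libraries with the hairpin were above all 3 without it, and the 4 hairpin groups overlapped each other. The log2 difference on knockdown was 4.52 ± 0.30 (SE), 22.9-fold, a value that rests on 5 to 7 counts in each sh-Empty library.

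No reversal of Gap43 was detectable. Its log2 fold change with JMJD1A(WT) against LacZ was 0.15 with a 95% interval of -0.13 to 0.43 (adjusted p = 0.605), so the largest fall inside that interval was small beside the knockdown rise. JMJD1A(H1122A) differed from JMJD1A(WT) by -0.28 (interval -0.57 to 0.02, adjusted p = 0.176) and from LacZ by -0.12 (interval -0.44 to 0.19, adjusted p = 0.706). Without JMJD1A(WT) replicate 1, the lowest of its group, the mutant was called lower than the wild type (log2 -0.40, adjusted p = 0.0412).

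Other axonal and growth-cone genes were mostly not expressed. Of 20 in the count table, 7 were tested on knockdown, and 4 were called higher and 1 lower (median log2 fold change 0.31). Over all genes tested it was 22.3% higher and 23.9% lower. Map2, a microtubule protein of dendrites, rose by a log2 value of 1.64 ± 0.13 (SE), Dpysl3, a collapsin-response protein, by 1.07 ± 0.05 (SE), and Ncam1, an adhesion molecule, by 0.63 ± 0.05 (SE), while Basp1, another growth-cone membrane protein, fell by 0.38 ± 0.12 (SE, adjusted p = 0.0405). Nefl, Nefm, Uchl1, Gprin1 and Pcp4 had 0 counts in all 15 libraries, and Stmn2, Stmn3, Crmp1, Dcx and Nrgn had at most 6. In JMJD1A(WT) against LacZ, Dpysl3 (log2 -0.40 ± 0.06 SE) and Ncam1 (-0.26 ± 0.04 SE) were called lower and Map2 was not (-0.01, adjusted p = 0.964). The neuron marker list summed to 9.12 to 12.3 CPM in sh-Empty and 25.5 to 29.6 CPM in sh-Jmjd1a libraries, with Map2 as its main part, and Rbfox3, Elavl4 and Nefl were without a count in any library.

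Rtl3 (Entrez Gene 213436, named Zcchc5 in the mm9 annotation, chrX:104032421-104035983, minus strand) is a gene derived from the Gag part of a retrotransposon. Its libraries held 1.04, 0.596 and 0.639 CPM in sh-Empty (12, 7 and 10 counts) and 9.70, 11.6 and 7.68 CPM in sh-Jmjd1a. They rose further in the rescue set, with 26.6, 23.6 and 24.4 CPM with LacZ, 41.8, 42.9 and 42.0 CPM with JMJD1A(WT), and 25.2, 24.2 and 25.0 CPM with JMJD1A(H1122A). The order sh-Empty, sh-Jmjd1a, then LacZ with the mutant, then the wild type was free of overlap between steps. On knockdown the log2 difference was 3.67 ± 0.28 (SE), 12.7-fold.

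Rtl3 was higher with wild-type JMJD1A than with LacZ. The log2 fold change against LacZ was 0.77 ± 0.08 (SE, adjusted p = 1.6e-10), 1.70-fold higher, and JMJD1A(H1122A) lay 0.77 ± 0.08 (SE, adjusted p = 1.2e-10) below the wild type. The mutant and LacZ differed by -0.002 (95% interval -0.18 to 0.18, adjusted p = 0.993). Rtl3 was thus higher on knockdown and also higher with the wild type than with LacZ, and in JMJD1A(WT) cells it stood at 55.6 times its sh-Empty level. LacZ-expressing JMJD1A-KD cells held 2.58 times the Rtl3 level of JMJD1A-KD cells without a second vector, a difference between sets that has no test here.

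Few related Gag-like and Pnma genes were expressed. Of 18 in the count table, 5 were tested on knockdown, with 0 called higher and 2 called lower (median log2 fold change -0.33). Beside this, 22.3% of all genes tested were called higher and 23.9% lower. Rtl8b fell by 0.44 ± 0.09 (SE, adjusted p = 0.00027) on the log2 scale and Peg10, an imprinted placental member, fell by 0.35 ± 0.04 (SE, adjusted p = 6.2e-08), and JMJD1A(WT) cells had more Peg10 than LacZ cells (log2 0.23, adjusted p = 3.7e-05). Rtl4, Ldoc1, Pnma2, Pnma3, Pnma5 and Zcchc12 had 0 counts in all libraries.

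Mdga1 (Entrez Gene 74762, chr17:29964901-30107032 on mm9, minus strand) encodes a GPI-anchored surface protein of the immunoglobulin family that binds neuroligins and so limits synapse formation. In the knockdown set it had 9.56, 8.60 and 7.22 CPM in sh-Empty and 18.7, 15.8 and 16.3 CPM in sh-Jmjd1a libraries. In the rescue set it had 11.4, 13.6 and 17.1 CPM with LacZ, 6.06, 6.13 and 6.32 CPM with JMJD1A(WT), and 24.1, 20.6 and 23.6 CPM with JMJD1A(H1122A). Neither set had an overlap between its groups, and the JMJD1A(WT) libraries were below even those of sh-Empty. The rise on knockdown, which the ranking that chose Mdga1 did not use, was 1.01 ± 0.13 (SE, adjusted p = 2.9e-07) on the log2 scale, 2.02-fold, place 192 of the 2318 ranked genes.

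With JMJD1A(WT) the log2 level of Mdga1 was -1.16 ± 0.15 (SE) relative to LacZ, the lowest value of 525 ranked genes, and JMJD1A(H1122A) was 1.87 ± 0.13 (SE) above the wild type, the highest of 1410. These contrasts chose the gene and are given without a test. The wild-type difference amounted to 115% of the knockdown rise on the log2 scale, and the mutant stood 0.71 ± 0.12 (SE) above LacZ. Of the 3 tested neuroligin and neurexin partners (median log2 fold change 0.45), Lrrtm4 alone was called higher on knockdown (log2 2.03, adjusted p = 0.0014, from a mean of 0.321 to 1.40 CPM, chosen after its values were seen). The share called higher over all genes tested was 22.3%. Nlgn2, a neuroligin, was at 124 CPM in sh-Empty and 115 CPM in sh-Jmjd1a (log2 -0.11, adjusted p = 0.0993) and was called lower in JMJD1A(WT) than in LacZ cells (log2 -0.19, adjusted p = 0.0075). Nrxn3, Lrrtm1 and Lrrtm3 had 0 counts, and Mdga2, the paralog of Mdga1, had at most 4.

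Casp4 (Entrez Gene 12363, chr9:5308828-5336783 on mm9, plus strand) encodes the mouse protease also called caspase-11, which senses lipopolysaccharide inside cells and cuts gasdermin D. It had 21.9, 29.1 and 27.9 CPM in sh-Empty and 70.1, 69.95 and 67.96 CPM in sh-Jmjd1a libraries, then 56.9, 54.4 and 56.4 CPM with LacZ, 31.2, 30.1 and 32.4 CPM with JMJD1A(WT), and 70.1, 77.4 and 75.9 CPM with JMJD1A(H1122A). No library of one group overlapped another within either set, and the replicates of each group except sh-Empty lay close together. The rise on knockdown, which the ranking that chose Casp4 did not use, was 1.39 ± 0.08 (SE, adjusted p = 1.6e-14) on the log2 scale, 2.62-fold, place 81 of 2318. In the wild type the log2 level was -0.82 ± 0.07 (SE) relative to LacZ, which was 59.4% of the knockdown rise, and the mutant was 1.24 ± 0.07 (SE) above the wild type and 0.42 ± 0.06 (SE) above LacZ. The level in JMJD1A(WT) cells was 1.19 times that in sh-Empty cells.

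On knockdown, 8 of 15 tested genes of the inflammatory caspase and inflammasome list, Casp4 left out, were called higher and 2 lower (median log2 fold change 0.76). The shares over all genes tested were 22.3% higher and 23.9% lower. The 4 with the greatest changes and a mean of at least 1 CPM were Gbp3, an interferon-induced GTPase (log2 1.85 ± 0.40 SE), Casp12, a caspase paralog (1.26 ± 0.10 SE), Naip5, a sensor of flagellin (1.24 ± 0.24 SE), and Aim2, a sensor of cytosolic DNA (0.96 ± 0.16 SE). Gsdmd, the substrate of Casp4, rose by 0.77 ± 0.28 (SE, adjusted p = 0.0237) from 1.73 to 3.04 CPM, and Il18, a cytokine of the pathway, fell by 0.85 ± 0.21 (SE). Nlrp3, Nlrc4, Il1b and Pycard had at most 4 counts in a library. Casp12 was the only one called lower in JMJD1A(WT) than in LacZ cells (-0.68, adjusted p = 3.2e-08), while Aim2 (0.59, adjusted p = 0.00017) and Casp8 (0.21, adjusted p = 0.011) were called higher. The macrophage list summed to 3.83 to 5.56 CPM in sh-Empty and 4.18 to 4.76 CPM in sh-Jmjd1a libraries, and Ptprc, Adgre1 and Csf1r were under 1 CPM everywhere.

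Wfdc3 (Entrez Gene 71856, chr2:164556680-164571431 on mm9, minus strand) belongs to the whey acidic protein family of secreted protease inhibitors. Its libraries gave 7.56, 4.52 and 4.35 CPM in sh-Empty and 6.75, 9.72 and 7.37 CPM in sh-Jmjd1a, and in the rescue set 7.26, 9.49 and 7.50 CPM with LacZ, 5.17, 8.64 and 7.69 CPM with JMJD1A(WT), and 19.2, 18.3 and 19.6 CPM with JMJD1A(H1122A). The mutant libraries alone were high, and the other 4 groups overlapped their neighbours in level. On knockdown the log2 fold change was 0.57 ± 0.20 (SE, adjusted p = 0.0210), with overlapping libraries, and the call was lost in DESeq2 (adjusted p = 0.0766), without sh-Empty replicate 2 (0.0897) or 3 (0.164), and without sh-Jmjd1a replicate 2 (0.134). The mutant was 1.39 ± 0.13 (SE) above the wild type on the log2 scale, which chose the gene, and 1.24 ± 0.14 (SE) above LacZ. The wild type and LacZ differed by -0.15 (95% interval -0.47 to 0.17).

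Few relatives of Wfdc3 were expressed, since 18 of the 23 in the count table had at most 4 counts in a library. Of the 4 tested, 3 were called lower and 0 higher on knockdown (median log2 fold change -1.03), namely Wfdc21 (log2 -1.77, adjusted p = 0.00069), Wfdc12 (-1.24, adjusted p = 5.2e-05) and Slpi, the secretory leukocyte protease inhibitor (-0.81, adjusted p = 0.0013). Wfikkn1 was not called (-0.68, adjusted p = 0.177). All genes tested gave 23.9% called lower and 22.3% higher on knockdown. The 3 that fell were called higher in JMJD1A(WT) than in LacZ cells, at log2 values of 2.56, 2.03 and 1.69, and lower in JMJD1A(H1122A) than in JMJD1A(WT).

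Cd24a (Entrez Gene 12484, chr10:43298975-43304068 on mm9, plus strand) encodes a small GPI-anchored sialoglycoprotein used as a surface marker of adipocyte progenitors and of many blood and epithelial cells. It had 38.9, 32.7 and 37.8 CPM in sh-Empty and 23.1, 21.9 and 19.8 CPM in sh-Jmjd1a libraries. With LacZ it had 11.5, 12.5 and 10.7 CPM, with JMJD1A(WT) 6.43, 6.60 and 6.32 CPM, and with JMJD1A(H1122A) 9.09, 13.3 and 13.3 CPM. The sh-Empty libraries were the highest of all, so the gene was not raised in knockdown cells. It fell on knockdown by 0.76 ± 0.09 (SE, adjusted p = 4.9e-08) on the log2 scale, 1.70-fold lower, and was at -0.84 ± 0.15 (SE) with the wild type relative to LacZ, the contrast that chose it. The mutant was 0.88 ± 0.15 (SE) above the wild type and overlapped LacZ (log2 0.04, 95% interval -0.24 to 0.32).

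LacZ cells held 0.536 times the Cd24a level of sh-Jmjd1a cells, and JMJD1A(WT) cells 0.177 times that of sh-Empty cells. Cd24a has near copies, since 2 stretches outside its locus, both on 1 chromosome, matched 99.9% of its transcript at up to 96.5% identity. Its counts are therefore uncertain where reads were split between the copies. None of the other 6 genes had such a match of at least 150 bases at 95% identity. Of the 9 other tested progenitor markers, 5 were called higher on knockdown and 2 lower (median log2 fold change 0.23), with Thy1 at 0.96 ± 0.06 (SE), Cd9 at 0.51 ± 0.05 (SE), Ly6a at -0.41 ± 0.12 (SE) and Dlk1, an inhibitor of adipogenesis, at -0.76 ± 0.04 (SE). Among the 25 other tested GPI-anchored proteins, 9 were called higher and 4 lower (median log2 fold change 0.12), led by Cd109 (1.40 ± 0.10 SE), Alpl, tissue alkaline phosphatase (-1.10 ± 0.13 SE), and Plaur, the urokinase receptor (1.07 ± 0.24 SE). Both lists stand beside 22.3% of all genes tested called higher and 23.9% lower on knockdown. The 7 epithelial markers were each under 1 CPM in every library.

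**Figure D2:**
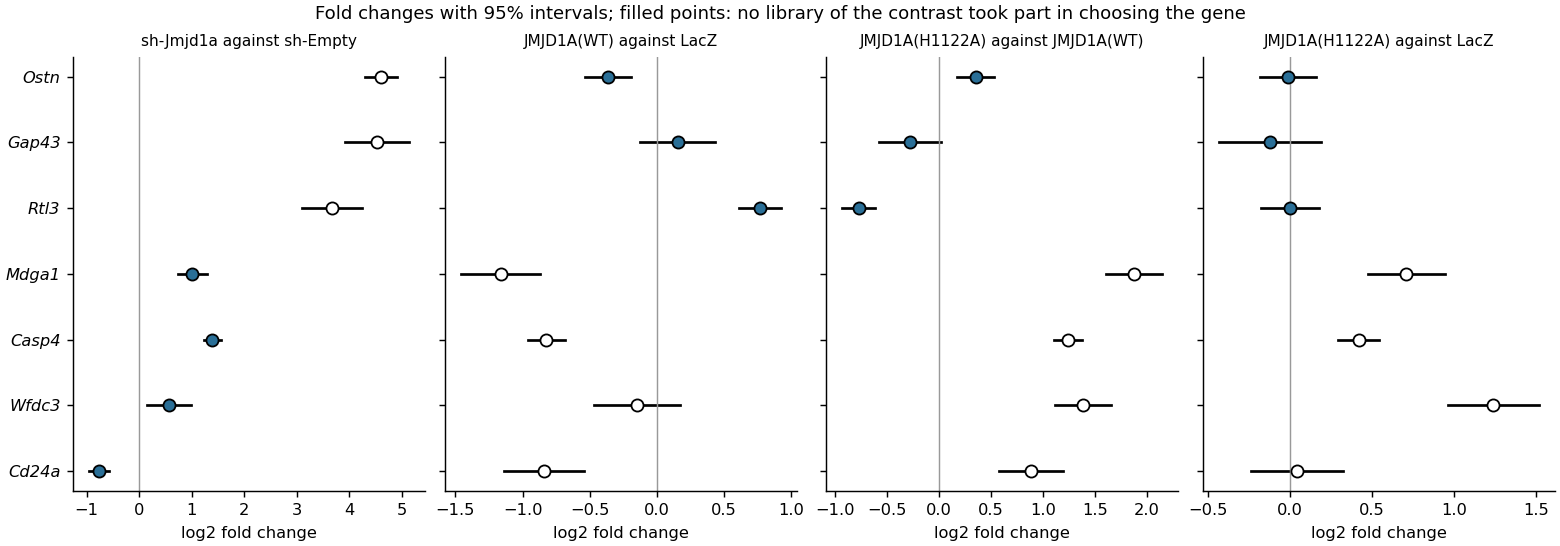
Log2 fold changes (points) with 95% intervals (bars) of the 7 genes in the 4 comparisons, each panel with its own horizontal scale. Filled points mark comparisons whose libraries took no part in the ranking that chose the gene. With JMJD1A(WT) against LacZ, Ostn lies just below 0 at -0.37, Gap43 spans 0 and Rtl3 lies above it at 0.77.

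Set side by side, the 7 genes showed several outcomes of the rescue. Ostn, Mdga1 and Casp4 were higher on knockdown, lower with JMJD1A(WT) than LacZ and higher in JMJD1A(H1122A) than JMJD1A(WT), and without LacZ replicate 2 only Mdga1 and Casp4 passed the threshold in all 3. Among the 12202 genes tested in both sets, 252 did (2.07%), but at least 1 of these contrasts chose each of the 3 genes, so nothing is read from their number. The difference with the wild type was 7.94% of the knockdown rise for Ostn, 59.4% for Casp4 and 115% for Mdga1. The knockdown rise chose Ostn and the fall with the wild type chose Mdga1, so the choice favoured a low share for the first and a high one for the last, and their order is a description. Gap43 showed no detectable reversal, Rtl3 went up with the wild type, Wfdc3 did not differ detectably between the wild type and LacZ, and Cd24a fell on knockdown and was lower again with the wild type.

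The rises that chose Ostn, Gap43 and Rtl3 were set beside those of all other genes called higher on knockdown. Of the 2363 with a log2 rise under 1, 10.7% were called lower in JMJD1A(WT) than in LacZ cells and 3.00% higher, and of the 312 between 1 and 2 it was 11.9% and 10.9%. Between 2 and 3 it was 7.69% and 10.3% of 39 genes. Of the 18 other genes of any level with a rise of at least 3, 0 were called lower and 4 higher (22.2%). Over all 12557 genes tested, the shares were 4.52% lower and 4.98% higher. Most of the 18 were of low level, for example Gm4070 at 1.26 CPM and Mgam at 1.40 CPM in sh-Jmjd1a. A fall could go uncalled at such levels, so nothing is read from the 0. Among the genes with at least 5 CPM and no overlap, those just outside the top 3 on knockdown were Fibin, a secreted protein (log2 3.37), Gm4951 (3.18) and Lpar4, a receptor of lysophosphatidic acid (3.02), against 3.67 for Rtl3 just inside. Of these, Lpar4 was called higher in JMJD1A(WT) than in LacZ cells (0.27, adjusted p = 0.0003), and Fibin (0.21, adjusted p = 0.254) and Gm4951 (0.26, adjusted p = 0.272) were not called.

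In the fall with the wild type, the places after Mdga1 were taken by Ror1, a receptor tyrosine kinase that is not among the 7 (log2 -0.88), and Cd24a (-0.84), with Casp4 (-0.82), Adh7, an alcohol dehydrogenase (-0.81), and Slc4a4, a bicarbonate transporter (-0.76), just outside the first 3. In the mutant against the wild type, Casp4 (1.24) was followed closely by Zfp469 (1.24), then by Id2, an inhibitor of DNA binding (1.18), and Ndrg1, a hypoxia-responsive gene (1.14). In both of these contrasts the values on either side of the limit differed by less than their standard errors.

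**Figure D3:**
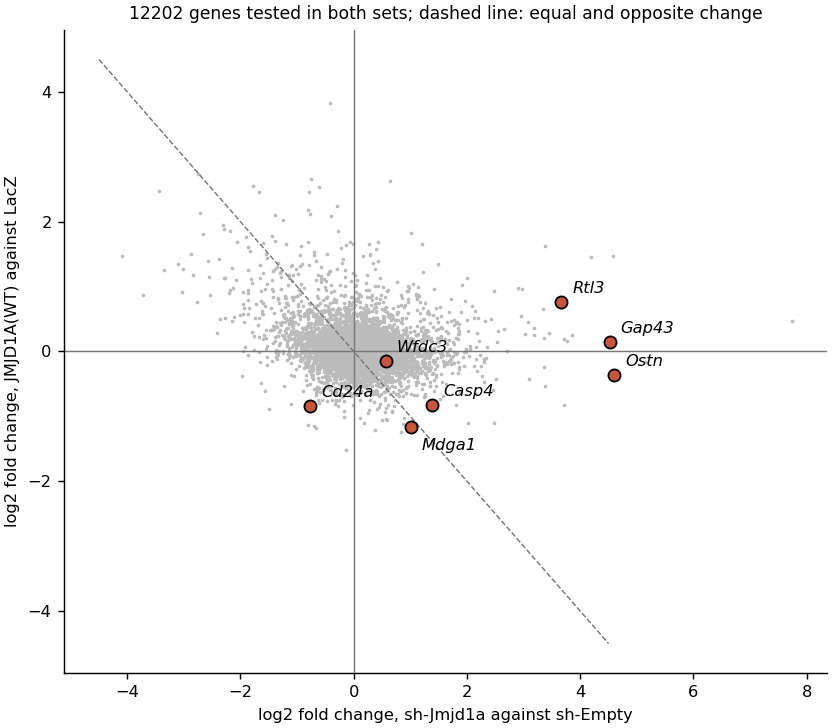
Log2 fold change on knockdown (horizontal) against that of JMJD1A(WT) over LacZ (vertical) for the 12202 genes tested in both sets, which share no library, with the 7 genes in red. Mdga1 lies near the dashed line of an equal and opposite change and Casp4 above it, while Ostn, Gap43 and Rtl3 lie far to the right, close to or above the horizontal axis.

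The order of the group means put numbers on the same pattern. For Ostn it was sh-Empty, JMJD1A(WT), JMJD1A(H1122A), LacZ and sh-Jmjd1a, with the last 3 overlapping from neighbour to neighbour. For Gap43 every step above sh-Empty overlapped. Mdga1 rose from JMJD1A(WT) through sh-Empty, LacZ and sh-Jmjd1a to JMJD1A(H1122A), and only LacZ and sh-Jmjd1a overlapped. For Casp4 the order was sh-Empty, JMJD1A(WT), LacZ, sh-Jmjd1a and JMJD1A(H1122A), with an overlap only at the last step. For Cd24a it was JMJD1A(WT), LacZ, JMJD1A(H1122A), sh-Jmjd1a and sh-Empty, and only LacZ and the mutant overlapped. Per kilobase of annotated exon, the sh-Jmjd1a means were 31.8 CPM for Ostn, 18.7 for Casp4, 11.9 for Cd24a, 7.16 for Gap43, 3.27 for Rtl3, 3.14 for Wfdc3 and 1.80 for Mdga1. That order of genes depends on the length used. The exons of Casp4 joined to 3710 bases against a longest transcript of 1901, and those of Wfdc3 to 2530 against 911.

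Between members, the levels of Ostn and Gap43 were most alike, with a Pearson r of 0.988 over the 15 libraries on the log2 scale. Rtl3 correlated with Gap43 at 0.937 and Mdga1 with Casp4 at 0.887, whereas Mdga1 and Rtl3 had an r of 0.181 and Rtl3 and Cd24a one of -0.918. These coefficients describe libraries that fall into 5 groups, so they mostly reflect group means. By the same measure over 10107 genes with at least 5 CPM, Ostn was closest to Cbx6, a Polycomb chromobox gene (0.996), Ctsl, a lysosomal protease (0.992), and Psma1, a proteasome subunit (0.991), for example Cbx6 went from 116 CPM in sh-Empty to 233 CPM in sh-Jmjd1a and 217 CPM with JMJD1A(WT). Gap43 was closest to Fibin (0.995), Flrt2, a membrane ligand in axon guidance (0.989), and Ostn (0.988).

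Rtl3 was closest to Col3a1, a fibrillar collagen (0.995), Lpar4 (0.990) and Klhl4 (0.986), and each of them was higher with LacZ than in sh-Jmjd1a, as Rtl3 was. Lpar4 stood at 5.38 CPM in sh-Empty, 43.3 in sh-Jmjd1a, 80.3 with LacZ and 97 with JMJD1A(WT). For Mdga1 the closest were Meis2, a homeobox factor (0.951), Gpr155 (0.945) and Cdh2, N-cadherin (0.942), and for Casp4 they were Rasa3, a Ras-inhibiting protein (0.984), Casp12 (0.983) and Susd6 (0.978). Casp12 had 15.97 CPM in sh-Empty, 38.8 in sh-Jmjd1a, 33.6 with LacZ, 20.8 with JMJD1A(WT) and 43.4 with JMJD1A(H1122A). Cd24a was closest to Gprc5b (0.978), Slc4a4 (0.948) and Rpl27a (0.944), and Wfdc3 to Fam160b1 (0.927), Idh2 (0.922) and Vps37c (0.913), none of which reached the size of the Wfdc3 difference. Idh2, a mitochondrial dehydrogenase, for instance had 204 CPM with JMJD1A(WT) and 260.2 CPM with JMJD1A(H1122A).

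The chromosomal neighbours of each gene were read for shared changes. Over the 3 nearest tested protein-coding genes on each side of the 7 genes, 42 in all, 11 were called higher on knockdown and 9 lower, beside the 22.3% and 23.9% of all genes. Mdga1 had 4 of its 6 neighbours called lower, by log2 values between -0.30 and -0.17, and 1 called higher, Zfand3, 35000 bases away (0.20, adjusted p = 0.00099), which was called lower in JMJD1A(WT) than in LacZ cells (-0.15, adjusted p = 0.0401). Rtl3 had 4 of its 6 neighbours called higher and 0 lower. Lpar4, 79981 bases away, rose by 3.02 (log2, adjusted p = 6.5e-19), P2ry10b, a lysophospholipid receptor 308283 bases away, rose by 1.66 (adjusted p = 1.4e-08), and on the other side Pgk1, a glycolytic enzyme, rose by 0.23 (adjusted p = 8.1e-06). Lpar4 was also called higher in JMJD1A(WT) than in LacZ cells, and lower in the mutant than in the wild type (-0.30, adjusted p = 5.1e-05), the direction of Rtl3 in both, and P2ry10b was not called with the wild type (0.29, adjusted p = 0.112).

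Casp4 lies between Casp1, 1563 bases away, and Casp12, 8693 bases away. Casp12 rose on knockdown by 1.26 (adjusted p = 9.1e-12), was lower with the wild type and higher in the mutant than in the wild type by 1.06 (adjusted p = 2.5e-14), as Casp4 was, whereas Casp1 was at 2.54 CPM in sh-Empty and 3.26 CPM in sh-Jmjd1a (adjusted p = 0.239). Wfdc3 lies 52 bases from Dnttip1, a subunit of a histone deacetylase complex, in the mm9 annotation, and Dnttip1 was not called on knockdown (log2 -0.07, adjusted p = 0.503) and was 0.28 higher in the mutant than in the wild type (adjusted p = 0.0063), beside 1.39 for Wfdc3. The nearest neighbours of Ostn and Gap43 were not called higher, since Ccdc50, the nearest neighbour of Ostn at 37657 bases, was at -0.22 on knockdown (adjusted p = 0.00013) and Zbtb20, the nearest of Gap43 at 535230 bases, at 0.65 (adjusted p = 0.335). Il1rap, the interleukin-1 receptor accessory protein 577372 bases from Ostn, rose by 1.10 (adjusted p = 4.6e-16) and was called lower with the wild type (-0.26, adjusted p = 0.00015). Of the 6 neighbours of Cd24a, 1 was called on knockdown, Crybg1, at a lower level (-0.26, adjusted p = 3.5e-06) and lower with the wild type (-0.31, adjusted p = 3.8e-07).

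**Figure D4:**
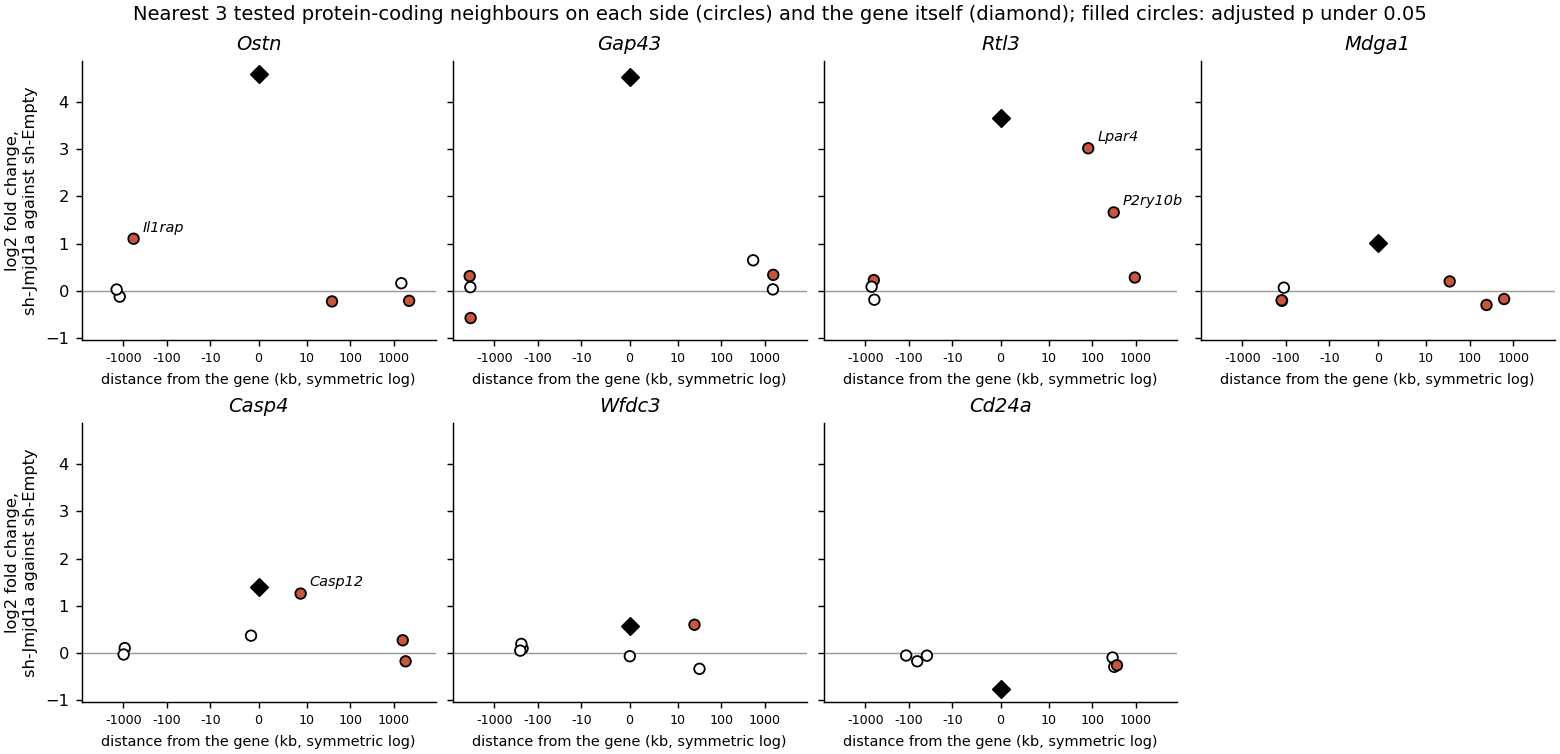
Log2 fold change on knockdown of the nearest 3 tested protein-coding genes on each side (circles, filled where the adjusted p is under 0.05) against their distance from the member (kilobases, symmetric log axis), with the member as a diamond at 0. Lpar4 and P2ry10b rise beside Rtl3 and Casp12 beside Casp4, while Ostn and Gap43 lie far above their neighbours shown.

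Markers of tissues in which these genes are known were read beside them. Of 10 skeletal muscle markers, 9 were under 1 CPM in every library, among them Myod1 and Myog without a count, and the list summed to 2.39 to 4.35 CPM in sh-Empty and 2.34 to 3.34 CPM in sh-Jmjd1a libraries. In the rescue set the list summed to 3.63 to 5.14 CPM with LacZ, 14.6 to 17.05 CPM with JMJD1A(WT), where Ostn was lowest of the hairpin groups, and 2.35 to 3.45 CPM with JMJD1A(H1122A), and its 1 tested gene, Des, was called higher with JMJD1A(WT) than with LacZ (log2 1.85). The osteoblast list summed to 179 to 188 CPM in sh-Empty and 211 to 222 CPM in sh-Jmjd1a libraries. In the rescue set it summed to 256 to 269 CPM with LacZ, 427 to 445 CPM with JMJD1A(WT) and 170 to 175 CPM with JMJD1A(H1122A). Of its 4 genes tested on knockdown, 2 were called higher and 2 lower (median log2 fold change -0.31), beside 22.3% and 23.9% of all genes tested. Sp7, Bglap, Ibsp and Sost were under 1 CPM everywhere. The part of these marker lists in the Ostn and Gap43 results was not tested.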

How the data were processed

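RNA was measured in 15 libraries of 3T3-L1 cells, 3 in each of 5 groups named by the labels. Per the labels, the authors processed reads with fastp, HISAT2 (mm9) and featureCounts, and they deposited raw counts per Entrez Gene number with no normalization. The paper names a directional kit and the labels another, and the strand setting of the counting is not given in the sources used here. In the mm9 annotation read here, no member shared exon bases with a gene of another name. A further Wfdc3 entry on the same strand shared 1619 exon bases with the one used. The annotation behind the counts was not checked. Symbols (24191 of 26301 gene numbers) came from a RefSeq table of GRCm38.p6, and positions from GENCODE M1 (NCBIM37, that is mm9). The members and lists were chosen with earlier results of these data known.

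The knockdown set (6 libraries, 12272 genes) and the rescue set (9 libraries, 12557 genes) were fitted apart with edgeR 4.0.16 in R 4.3.3 (limma 3.58.1, statmod 1.5.0), with TMM, filterByExpr at a minimum count of 10, robust dispersions and the quasi-likelihood F test, adjusted by Benjamini and Hochberg over all genes at 0.05. The SE is the log2 fold change over the square root of F. Levels are CPM with TMM factors over all 15 libraries. Replicate pairs differed by more than sampling noise (chi-square per degree of freedom 2.06 to 5.22). Copies were sought with blastn 2.17.0. Precision is lowest for Gap43 and Rtl3 in sh-Empty, with 5 to 12 counts per library.

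Genes named are the members, Kdm3a, the first 6 genes of each choosing contrast (at least 5 CPM, no overlap), the 3 genes most alike to each member, the 3 nearest tested genes on each side, and from each list up to 4 called genes whose mean reached 1 CPM and those near 0. Genes named beyond this, such as Gsdmd, Il18, Casp8, Nlgn2, Lrrtm4, Rtn4r, Camk2n1, Wfikkn1 and Des, were chosen after their values were seen. The result of 1 gene list is not reported here. The alternatives were RLE factors, DESeq2 1.42.0, no filter, all 15 libraries in 1 fit, the legacy quasi-likelihood method, a threshold of 0.01, a replicate block, and leaving out single libraries. When 1 library was left out, the fit pooled the spread over the groups.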

Additional observations from a re-analysis of the deposited data

How the results depend on the processing

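Of 488 recomputed log2 fold changes of the 7 genes and Kdm3a, 471 kept their direction and their side of 0.05, and the 70 recomputed group means stayed within 0.992 to 1.01 times the reported ones. The changes of side were those of Wfdc3 on knockdown (DESeq2, 3 left-out libraries and the threshold of 0.01), Ostn with JMJD1A(WT) against LacZ and Gap43 in the mutant against the wild type, each given with the gene. Values near 0 that were not called turned sign in 10 fits. When single libraries were left out, JMJD1A(H1122A) against LacZ ran from -0.11 to 0.082 for Ostn, -0.038 to 0.049 for Rtl3 and -0.052 to 0.20 for Cd24a, and JMJD1A(WT) against LacZ from -0.11 to 0.28 for Gap43. With all 15 libraries in 1 fit, Rtl3 in JMJD1A(H1122A) against LacZ was 0.0021. The number of genes called in JMJD1A(H1122A) against LacZ, 1160, ran from 674 (without JMJD1A(H1122A) replicate 1) to 1256 over left-out libraries and was 764 without LacZ replicate 3, and the cause was not tested. At a threshold of 0.01 by construction fewer genes were called, 733 of 1193 for JMJD1A(WT) against LacZ, 576 for JMJD1A(H1122A) against LacZ and 148 of 252 for all 3 calls. The labels number the replicates alike in each group. Deviations of same-numbered libraries correlated at -0.0388 to 0.00845 on knockdown and at -0.0121 to 0.0601 in the rescue set. On knockdown, 0 of 6 libraries correlated best with their own number. It was 4 of 6 for JMJD1A(WT) against LacZ, 4 for the mutant against the wild type and 3 for the mutant against LacZ. Whether same-numbered rescue libraries share more than a number was not tested. With the replicate block, 5425 genes were called on knockdown against 5672 without, 1393 against 1193 for JMJD1A(WT) over LacZ, 3283 against 2985 for the mutant over the wild type and 1413 against 1160 for the mutant over LacZ, and no call on the 7 genes changed. Depth limits the folds of Gap43 and Rtl3, whose sh-Empty counts were 5 to 12.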
